A study of Mus musculus with 6 samples.

Results

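Ugt1a1 carried 4 regions of strong H3K9me3 in mouse quadriceps. They lay near the low-coordinate end of a long run of strong regions, with gaps between them, over the neighbouring genes Mroh2a, Hjurp and the start of Trpm8. The 4 regions are those that the authors' annotation names Ugt1a1, out of 202553 regions in all, and they lie on chromosome 1 between 88211928 and 88218336 (GRCm38). A further 54 regions within 200 kb on either side were read as context. The regions were selected on the symbol alone, but the gene was chosen by its counts in these 6 libraries, which were already known, so its level and its difference between genotypes are given as descriptions, beside the fit over all regions. None of the 4 regions is annotated as an exon: their classes are promoter within 1 kb, promoter at 1 to 2 kb, intron and 3' UTR. The authors' table gives 1 class per region, so a region of another class may still overlap an exon.

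H3K9me3, trimethylation of lysine 9 of histone H3, was profiled by CUT&Tag, in which a transposase held at the antibody-bound mark cuts and tags nearby DNA. The tissue was instantly frozen quadriceps femoris, a thigh muscle, from Prr14-WT mice (libraries 3, 4 and 8) and Prr14-KO mice (libraries 4, 5 and 7), with 3 libraries per genotype. The deleted part of Prr14, the strain, the age and the sex are not given in the sources used here. Nothing in the labels ties a library to a mouse of its own, so the p-values measure only the spread between these libraries, which may be technical.

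Library totals ran from 4324444 to 4756133 counts. At Prr14 itself, which encodes a protein of the nuclear lamina, the single region of the table held 10, 18 and 10 counts in wild-type libraries 3, 4 and 8, and 14, 56 and 54 in knockout libraries 4, 5 and 7. Knockout library 4 lay within the wild-type range, apart from the other knockouts. Counts of the mark in 1 region do not check the genotype labels. A histone mark does not measure expression, so the muscle label could not be checked against marker genes.

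UGT1A1 is the enzyme of the endoplasmic reticulum that joins bilirubin to glucuronic acid in the liver so that it can leave in bile. The Ugt1a genes share their downstream exons: each has its own promoter and first exon, spliced to the same final exons, and Ugt1a1 has the start site closest to that shared end. H3K9me3 is bound by HP1 proteins and is the mark of constitutive heterochromatin, which packs repeats and silent genes. Ugt1a1 is known mainly from liver and gut rather than from muscle.

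RefSeq (GRCm38.p6) places Ugt1a1 at 88211959 to 88220002, on the plus strand. All 9 Ugt1a spans of chromosome 1 overlap each of the 4 regions. The first region starts 31 bp before the Ugt1a1 start site and crosses it, and the authors' table lists 1 transcript for it. The intron region, at 88216673 to 88217368, has 13 transcripts listed, and each of the other downstream regions has 1. Since all 9 spans cover them, counts in these regions cannot be assigned to Ugt1a1 alone. The 4 regions cover 3097 bp together, 38.1% of the Ugt1a1 span counted within it, with gaps of 848, 1737 and 726 bp between them.

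Of the 8 Ugt1a promoters that RefSeq's promoter table (GRCm38.p6) holds, 3 had a region of the mark overlapping their window: Ugt1a5, Ugt1a2 and Ugt1a1. The Ugt1a5 and Ugt1a2 regions contain the whole window. The Ugt1a1 region starts 31 bp before the start site, so it covers only the end of its window and lies mostly downstream. The 250 bases before each of these start sites are shown because the level of the overlapping regions differed by several fold. Capitals mark CG pairs, the sites of DNA methylation in mammals. The windows are chr1:88165762-88166011 for Ugt1a5, chr1:88200361-88200610 for Ugt1a2 and chr1:88211709-88211958 for Ugt1a1, all on the plus strand.
Ugt1a5: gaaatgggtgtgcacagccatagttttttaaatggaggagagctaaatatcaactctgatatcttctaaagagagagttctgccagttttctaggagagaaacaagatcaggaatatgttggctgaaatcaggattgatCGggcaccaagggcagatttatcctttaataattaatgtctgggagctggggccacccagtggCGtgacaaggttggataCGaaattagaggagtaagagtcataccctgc
Ugt1a2: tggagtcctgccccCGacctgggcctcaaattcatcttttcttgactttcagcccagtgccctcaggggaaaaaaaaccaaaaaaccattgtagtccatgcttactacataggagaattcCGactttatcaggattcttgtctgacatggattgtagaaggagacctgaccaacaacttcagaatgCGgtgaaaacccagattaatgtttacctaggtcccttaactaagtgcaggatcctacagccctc
Ugt1a1: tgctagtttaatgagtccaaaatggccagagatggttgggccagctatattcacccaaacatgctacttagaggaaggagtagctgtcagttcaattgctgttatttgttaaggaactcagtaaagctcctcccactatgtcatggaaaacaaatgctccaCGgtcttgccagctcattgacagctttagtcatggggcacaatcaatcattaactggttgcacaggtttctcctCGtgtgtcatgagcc

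The Ugt1a1 window holds 2 CG pairs and the Ugt1a2 and Ugt1a5 windows 3 each. The 8 Ugt1a windows hold 0 to 3, against a median of 6 over 32851 promoter windows of this length, of which 92.1% hold at least 1 and 29.0% hold 2 or fewer. The mark over the start site was 40.2 CPM per kb at Ugt1a1, 8.20 at Ugt1a2 and 5.82 at Ugt1a5 (mean of 6 libraries, per kb of region). CPM, a scaled count, divides a count by the library's counts in tested regions after TMM scaling.

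The level of the mark was high at each Ugt1a1 region. In order along the gene, the regions averaged 40.6, 59.8, 42.5 and 30.3 CPM over the 6 libraries, where the median of all regions was 3.60 CPM. Each stood above 99.6% of all regions by CPM. Per kb of region the level went from 40.2 at the start site through 52.0 and 61.2 to 125 CPM per kb at the region annotated as 3' UTR, against a median of 11.1 over all regions. The last region is also the narrowest, at 242 bp. Summed over the gene and divided by the covered length, Ugt1a1 ranked 27 of 8954 genes with 4 or more regions. It held 51.7 CPM per kb where the median gene had 10.1. The neighbouring gene Mroh2a ranked higher, at 22, with 63.3 CPM per kb. The 10 regions named for other Ugt1a genes held 5.82 to 17.6 CPM per kb.

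Each of the 4 regions had a lower mean in the knockouts (0.754 to 0.836 of the wild-type mean), and none passed the test over all regions.

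The region over the start site, at 88211928 to 88212937, held 210, 200 and 186 counts in wild-type libraries 3, 4 and 8, and 152, 129 and 147 in knockout libraries 4, 5 and 7. All knockouts were below all wild types. After scaling the means were 46.2 ± 2.13 and 34.9 ± 2.21 CPM (SD, n = 3). On the log2 scale the change was -0.40 (SE 0.18, edgeR adjusted p = 0.998).

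At 88213785 to 88214936, annotated as promoter at 1 to 2 kb, wild-type libraries held 232, 298 and 309 counts and knockout libraries 235, 226 and 206. The groups overlapped, since wild-type library 3 lay among the knockouts. The means were 65.2 ± 10.9 and 54.5 ± 2.67 CPM (SD, n = 3), and on the log2 scale the change was -0.26 (SE 0.16, edgeR adjusted p = 0.998). Leaving out 1 library in turn gave -0.39 (without wild-type library 3) to -0.18 (without wild-type library 8).

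The intron region at 88216673 to 88217368 held 229, 224 and 173 wild-type counts and 179, 143 and 127 knockout counts. Knockout library 4 and wild-type library 8 were close to each other, at 41.7 and 40.7 CPM, so the groups overlapped. The log2 change was -0.41 (SE 0.17, edgeR adjusted p = 0.998), from 48.5 ± 6.76 to 36.5 ± 4.94 CPM (SD, n = 3).

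In the region annotated as 3' UTR, at 88218094 to 88218336, the wild types had 177, 132 and 130 counts, the knockouts 119, 118 and 89. All knockouts were below all wild types after scaling, though knockout library 5 and wild-type library 8 were close, at 29.8 and 30.6 CPM. The means were 33.9 ± 5.43 and 26.6 ± 3.84 CPM (SD, n = 3), and the log2 change was -0.35 (SE 0.19, edgeR adjusted p = 0.998). Without wild-type library 3 it was -0.21.

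**Figure D1:**
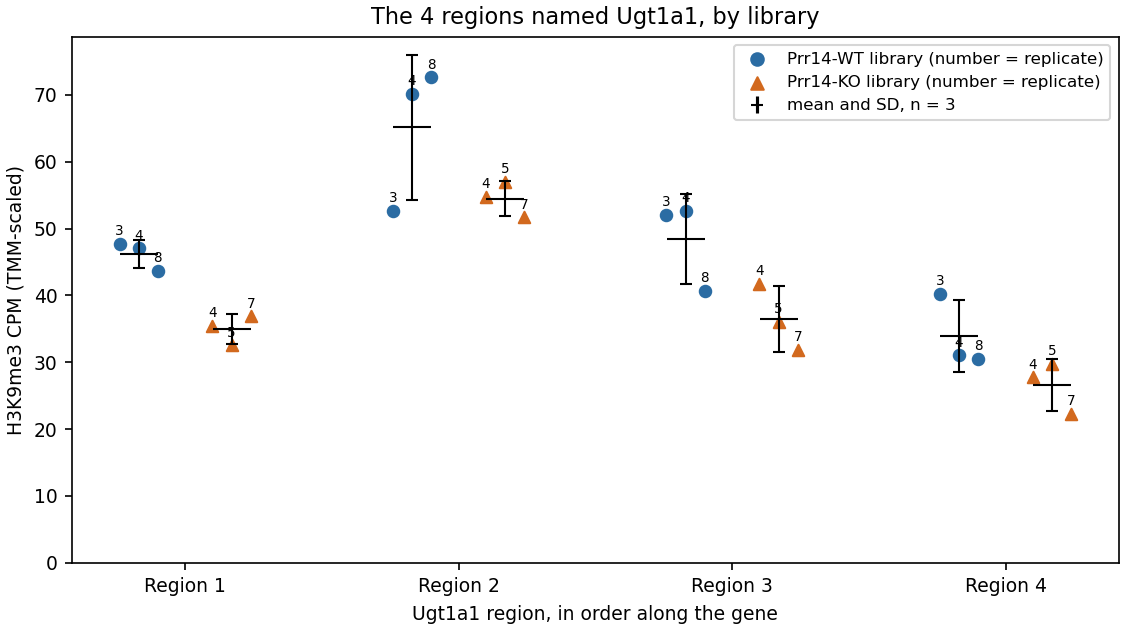
H3K9me3 in CPM (vertical axis, from 0) at the 4 Ugt1a1 regions in order along the gene, by library, with blue circles for Prr14-WT and orange triangles for Prr14-KO; numbers are replicate labels and black bars the mean and SD (n = 3). The knockout mean is lower in each region, and the 2 genotypes do not overlap in region 1 (34.9 against 46.2 CPM) and region 4 (26.6 against 33.9 CPM).

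Knockouts lay below wild types without overlap in 2 of the 4 regions, where 4.93% of all tested regions did so. An unadjusted p under 0.05 with a lower knockout level was found in 2 of the 4, against 1.81% of all tested regions. That number was 0 without wild-type library 4, 3 without wild-type library 8 and 1 without wild-type library 3 or knockout library 5 or 7. After adjustment 0 of the 4 were called, against 0.00975% of regions called lower over the whole table. DESeq2 and limma-voom called none of the 4 either, with unadjusted p under 0.05 in 2 and 3 of them. In the authors' deposited table the log2 fold changes of the 4 regions run from -0.45 to -0.30, with an adjusted p of 1.00 for each. These shares are read as a description, because the gene was chosen with its counts known. The 4 regions also lie side by side in the same libraries, so they are not independent cases. The shares over all tested regions take in weaker regions with larger standard errors. The median SE was 0.46 over all tested regions. It was 0.17 over the 740 at or above the level of the weakest Ugt1a1 region.

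Strong regions as a whole had a median change near 0. Over the 740 tested regions at or above the level of the weakest Ugt1a1 region, the median log2 change was -0.02 and 55.7% were below 0. Over all tested regions the median was 0.00, and the median of the 4 Ugt1a1 regions was -0.38.

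Summed by gene symbol, Ugt1a1 held 848, 854 and 798 counts in wild-type libraries 3, 4 and 8, and 685, 616 and 569 in knockout libraries 4, 5 and 7. No knockout sum reached the lowest wild-type sum. That was so, with knockouts below, for 4.19% of all gene sums tested. On the scale of the gene fit the means were 180 ± 8.18 and 140 ± 10.3 CPM (SD, n = 3), with -0.36 as the log2 change (SE 0.09). The edgeR adjusted p over 15265 genes was 0.175, so the sum was not called. By unadjusted p (0.000103) it ranked 9 among those genes, of which 3.58% had an unadjusted p under 0.05 and 0.0393% passed adjustment. Without knockout library 4 the sum passed (log2 change -0.42, edgeR adjusted p = 0.00844), in a fit that called 18 genes rather than 6. Its adjusted p lay between 0.00844 and 1.00 in 13 alternatives.

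The 4 regions took similar shares of the gene's counts in both genotypes. The largest, at 88213785, held 33.7% ± 5.78 of the wild-type counts and 35.7% ± 1.26 of the knockout counts (SD, n = 3). The region over the start site held 23.8% ± 0.810 and 23.0% ± 2.54. Wild-type library 3 differed from its group here, with 27.4% in the region at 88213785, where the other libraries held 34.3% to 38.7%.

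The surroundings of Ugt1a1 were unequal on its opposite sides. Towards lower coordinates, where the other Ugt1a first exons lie, 11 regions within 200 kb held 1.66 to 16.1 CPM each, with a median of 3.27 and 10.9 CPM per kb covered. Towards higher coordinates 43 regions held 1.90 to 89.3 CPM each, with a median of 23.4 and 49.9 CPM per kb covered. At 5832 bp before the first Ugt1a1 region ended the region over Dnajb3, a heat shock protein gene inside the locus, with a level of 9.80 CPM. The Ugt1a2 region before that held 4.94 CPM.

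**Figure D2:**
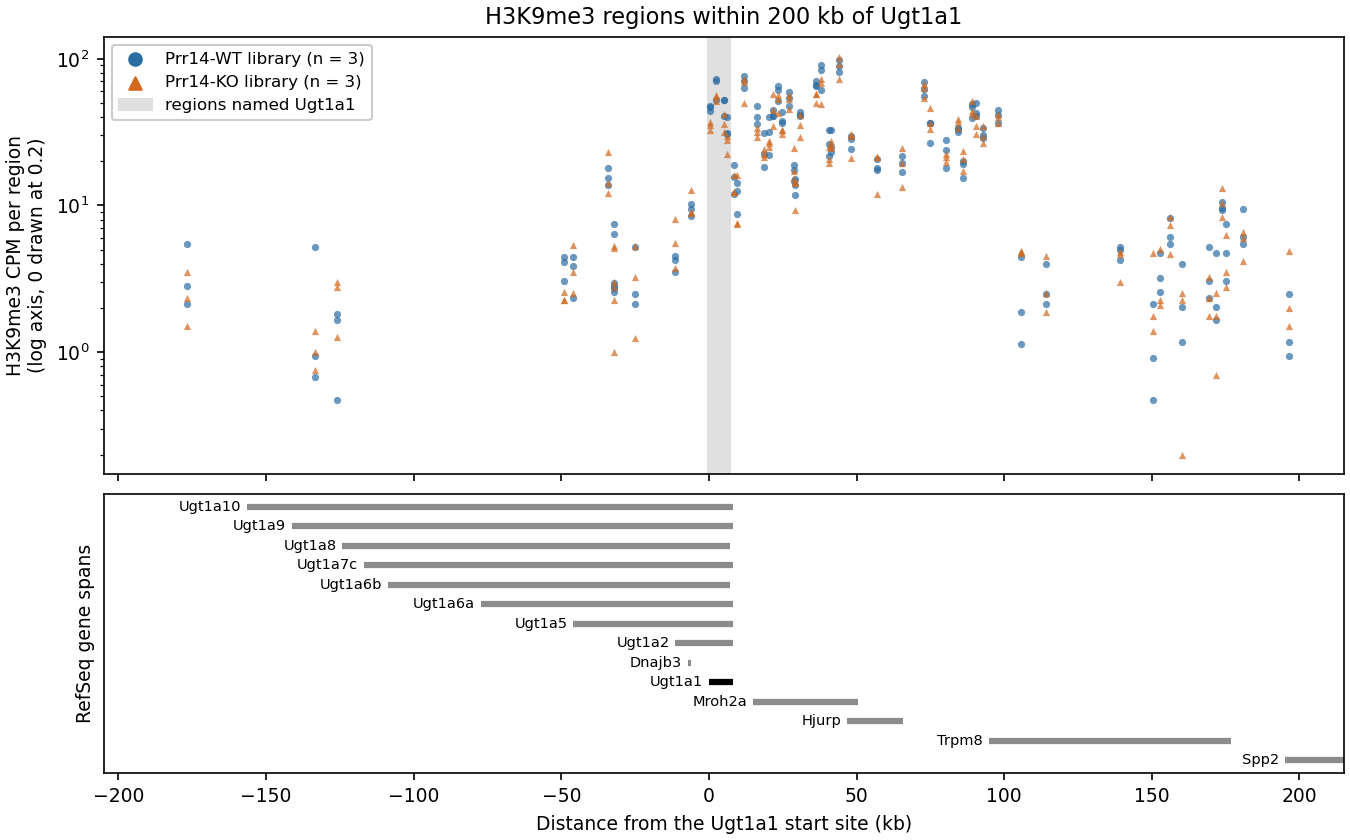
H3K9me3 in CPM per region (vertical log axis) against distance from the Ugt1a1 start site in kb, for the 58 regions within 200 kb, with a point for each of the 3 Prr14-WT (blue circles) and 3 Prr14-KO libraries (orange triangles) and RefSeq gene spans as bars below. The Ugt1a1 regions (grey band) average 30.3 to 59.8 CPM. They stand at the step between the low Ugt1a side (median 3.27 CPM) and the high stretch over Mroh2a, Hjurp and the start of Trpm8.

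Taking adjacent regions that each reached the 90th percentile of all regions (9.08 CPM), a limit set after the values were seen, the run around Ugt1a1 held 35 regions over 105 kb, from 88205411 to 88310888. No limit was set on the gaps between regions, and the regions covered 21.9% of this length. The run began at the Dnajb3 region and ended at a region assigned to Trpm8, the cold and menthol channel of sensory neurons. The next region on either side held 4.94 and 3.66 CPM. Of the 17029 such runs in the table it ranked 1 by number of regions, the next holding 28, and 9 by length in kb. With the 75th percentile the run had the same ends. With the 95th it held 5 regions, ended at 88220594 and ranked 25 by number of regions.

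Beside the 4 of Ugt1a1, the run holds 19 regions named Mroh2a, 7 named Trpm8, 4 named Hjurp and 1 named Dnajb3. Mroh2a encodes a HEAT-repeat protein of the maestro family, and Hjurp the chaperone that loads the centromeric histone CENP-A. Of the Mroh2a regions 12 are annotated as exons, and these are the only exon regions of the run. The Mroh2a regions held 52.9 to 131 CPM per kb. The strongest regions outside Ugt1a1 by CPM were all assigned to Mroh2a, at 88255163 (89.3 CPM), 88249477 (70.8 CPM) and 88223162 (66.9 CPM).

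The lower knockout level at Ugt1a1 was shared in direction, at a smaller median size, by most Mroh2a regions of the run. Of the 31 run regions outside Ugt1a1, 24 had a log2 change below 0, with a median of -0.05 and a range from -0.39 to 0.22. Among the 19 Mroh2a regions 17 were below 0, with a median of -0.19. The share below 0 was 49.9% over all tested regions. It was 55.7% over those at or above the level of the weakest Ugt1a1 region. In the gene fit the Mroh2a sum was not called (log2 change -0.17, SE 0.07, edgeR adjusted p = 1.00), at 721 ± 29.6 against 641 ± 43.2 CPM (SD, n = 3). As for Ugt1a1, all knockout sums of Mroh2a (591, 670 and 662 CPM) lay below all wild-type sums (701, 708 and 755 CPM). That was so for 4.19% of all gene sums tested. By unadjusted p (edgeR, 0.0147) Mroh2a ranked 142 among the 15265 genes. The sums for Hjurp (log2 change 0.02, SE 0.10), Trpm8 (-0.03, SE 0.08) and Dnajb3 (0.11, SE 0.32) had edgeR adjusted p = 1.00 each. The gene sums take in all regions the authors assign to a symbol, also those outside the run.

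Of the 54 regions on both sides, 48 were tested and 0 passed, where 0.0130% of all regions did in either direction. An unadjusted p under 0.05 with a lower level was found in 1 of the 48, where 1.81% of all tested regions had one. It was the Mroh2a region at 88228151 (log2 change -0.39, SE 0.18, edgeR adjusted p = 0.998), named after its value was seen. All knockouts lay below all wild types in 5 of the 48, against 4.93% of all tested regions, and above them in 1, against 4.68% of all tested regions.

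**Figure D3:**
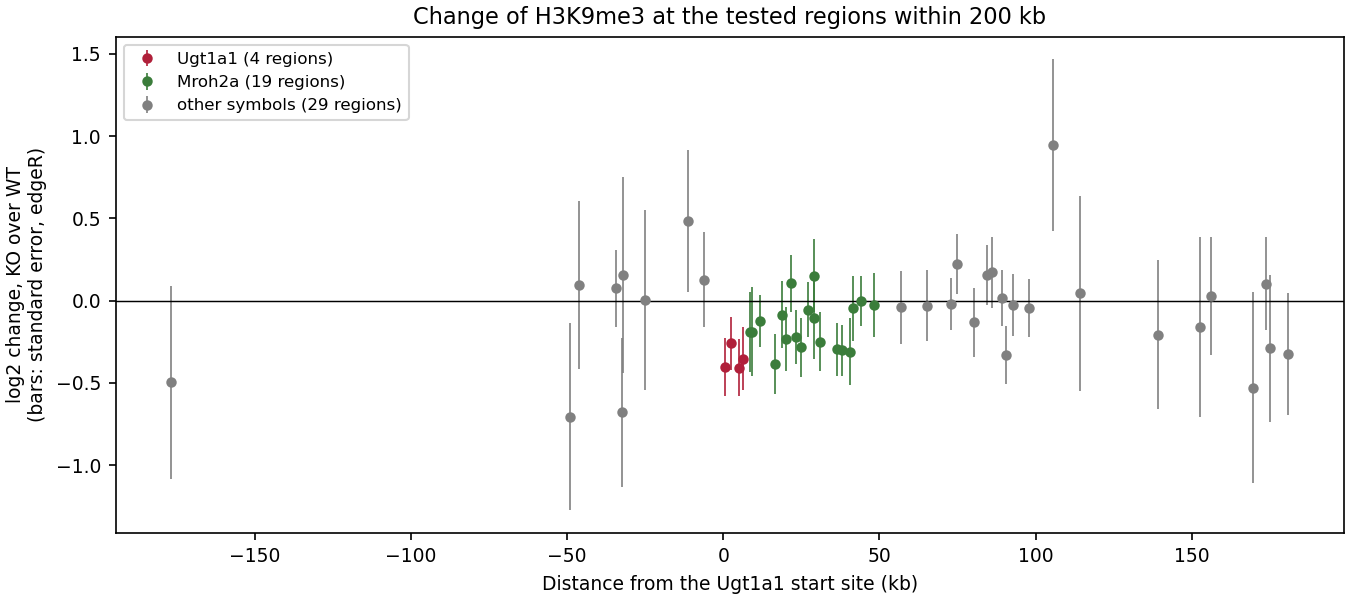
Log2 change of H3K9me3, Prr14-KO over Prr14-WT (vertical axis, points with edgeR standard errors), at the 52 tested regions within 200 kb, against distance from the Ugt1a1 start site in kb. The 4 Ugt1a1 regions (red) lie between -0.41 and -0.26, and 17 of the 19 Mroh2a regions (green) lie below 0.

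The counts of both flanks summed to 1213, 1235 and 1314 CPM in wild-type libraries 3, 4 and 8 and to 1083, 1222 and 1213 CPM in knockout libraries 4, 5 and 7. The groups overlapped, and knockout library 4 was the lowest. The log2 difference was -0.10 (two-sided exact permutation p = 0.20, where 3 against 3 cannot give less than 0.10). Without knockout library 4 it was -0.04, and without wild-type library 8 it was -0.06. The lower side differed by -0.03 (exact permutation p = 0.70) and the higher side by -0.10 (exact permutation p = 0.30).

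The share of Ugt1a1 within its window does not depend on scaling between libraries. Because the gene was chosen by these counts, the share is given as a description with no test. Ugt1a1 held 13.7%, 14.0% and 12.5% of the counts in the window of 58 regions in wild-type libraries 3, 4 and 8, and 12.8%, 11.3% and 10.5% in knockout libraries 4, 5 and 7. Knockout library 4 lay above wild-type library 8, so the groups overlapped. The means were 13.4% ± 0.796 and 11.6% ± 1.18 (SD, n = 3), a difference of -1.84 percentage points.

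Other genes of the UGT family and of bilirubin handling had regions at ordinary levels, and none passed the test. Of 21 other UDP-glycosyltransferase (UGT) genes, listed by symbol, 18 had regions and 16 were tested as gene sums. Among the tested sums 0 passed in either direction, 0 had an unadjusted p under 0.05, and 9 were below 0. Over all gene sums tested 0.0393% passed and 3.58% had an unadjusted p under 0.05, so counts of 0 among 16 do not set the family apart. Their median log2 change was -0.02, beside 0.00 over all genes tested. Within the Ugt1a locus Ugt1a5, over 5 regions, had a log2 change of -0.12 (SE 0.19) and Ugt1a2, over 2 regions, 0.27 (SE 0.36), both with edgeR adjusted p = 1.00. Per covered kb the tested family members other than Ugt1a1 held 8.08 (Ugt3a2) to 17.7 CPM (Ugt2b34) on the gene scale, where Ugt1a1 held 51.7. Ugt1a6a, Ugt1a6b and Ugt1a7c have no region under their own symbol, although the shared end of their spans lies under the Ugt1a1 regions.

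**Figure D4:**
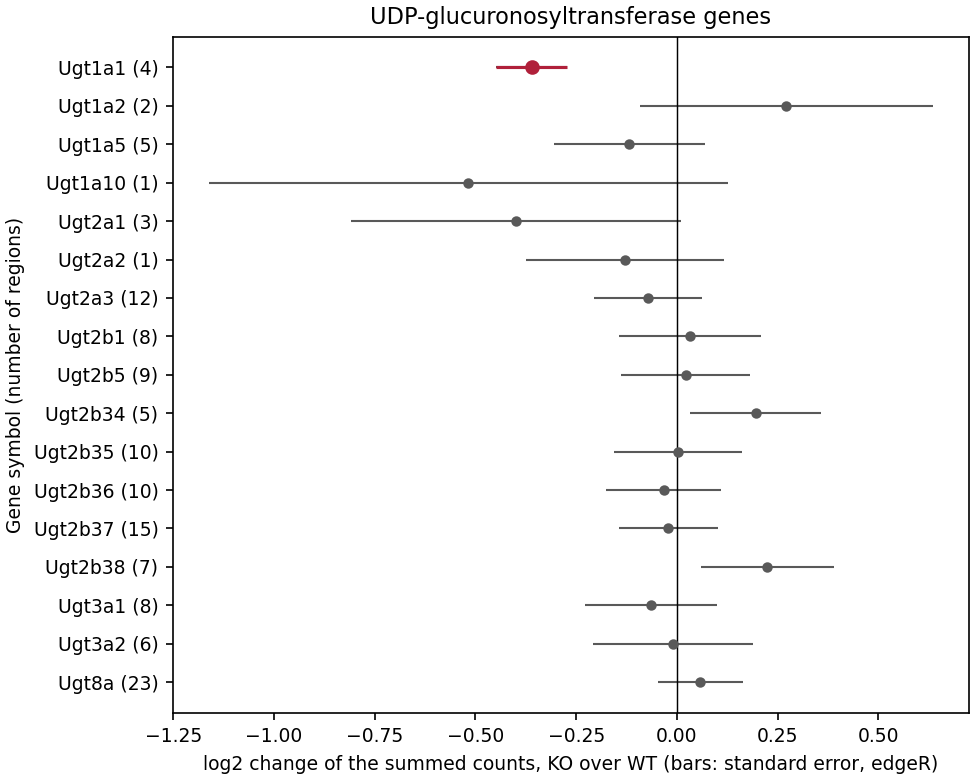
Log2 change of summed H3K9me3 counts, Prr14-KO over Prr14-WT (horizontal axis, points with edgeR standard errors), for the 17 tested UDP-glycosyltransferase (UGT) genes, with the number of regions in brackets. Ugt1a1 (red) lies at -0.36 with a standard error of 0.09, and the other genes run from -0.52 to 0.27 with bars of varied width.

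Of the genes for haem breakdown, the source of bilirubin, only haem oxygenase Hmox1 had a region (1 of 4 genes), and its sum was too low to test. Of 5 genes for bilirubin uptake and export 4 were tested and 0 passed, with a median log2 change of 0.03. Of 4 genes supplying UDP-glucuronic acid 2 were tested and 0 passed. Of 9 regulators of Ugt1a1 8 were tested and 0 passed, with 4 of the 8 below 0. The smallest unadjusted p of these lists and the family belonged to Ugp2, which makes UDP-glucose (log2 change 0.35, SE 0.19), Hnf4a, a master regulator of liver genes (-0.62, SE 0.34), and Ugt2b38, a family member on another chromosome (0.22, SE 0.16), all with edgeR adjusted p = 1.00.

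Among the 1261 other genes whose sums were at least as high as that of Ugt1a1, the closest pattern over the 6 libraries was that of Sdk2 (Pearson r = 0.96), then Fat1 (0.94) and Kcnk9 (0.94), all over the same 6 libraries and with log2 CPM of the gene sums. The highest of so many correlations over 6 libraries is a description only. By the share of counts in exon regions, Arhgap45 and Plekha3 (100% each), Plec (95.1%), Cyp4f18 (91.6%) and Clip2 (91.5%) led the 8954 genes with 4 or more regions. Ugt1a1 had 0% by this measure, as did 6933 of these genes, and its neighbour Mroh2a ranked 50 with 63.2%.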

How the data were processed

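H3K9me3 CUT&Tag of quadriceps was analysed from 1 deposited table covering 3 Prr14-WT and 3 Prr14-KO libraries, grouped by the genotype label. The tools used by the authors were BWA, MACS2, Trimmomatic and bedtools, with deepTools and DESeq2 1.6.3, on GRCm38, per the submitters' processing notes. Settings, and whether the caller ran on pooled libraries, are not given in the sources used here. Positions are those of the table. The deposited values used here are raw counts per region and library, per the file headers. A normalised signal that the authors made by dividing each count by 1 factor per library was not used. The authors' log2 fold change and p-value are quoted only where named. The deposited score was not used.

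All regions were fitted with edgeR 4.0.16 in R 4.3.3: filterByExpr (minimum count 10, minimum total 15) kept 153789 regions (75.9%), with TMM scaling and a robust quasi-likelihood test. Sums by the authors' symbol, without 681 regions that have none, were fitted likewise. The standard error (SE) of a log2 change in these fits is its absolute value divided by the square root of the test's F statistic. P-values were adjusted by Benjamini-Hochberg over all features of a level, with a threshold of 0.05. CPM uses the tested counts of its level, so gene and region scales differ slightly. Sums over the flanks were compared by exact permutation tests in SciPy 1.17.1. The labels mention no spike-in, and scaling removes any uniform change of the mark.

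Named regions and genes were all Ugt1a1 regions, the 3 strongest others within 200 kb, listed genes that passed or otherwise the 3 with the smallest p, and the closest genes by correlation (3) and exon share (5). Members and lists were chosen with earlier results of these data known. Alternatives were RLE factors, library totals, no filter on low counts, DESeq2 1.42.0, limma-voom (limma 3.58.1), a fit without robust weighting, loess offsets (span 0.3), flanks of 100 and 500 kb or of 1 side, and leaving out each library. Loess offsets and single sides were added after seeing the data. An item of the regulator list is not reported here.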

Additional observations from a re-analysis of the deposited data

How the results depend on the processing

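Each of the 4 Ugt1a1 regions kept a lower knockout level, and none was called, under all 13 alternatives. Their log2 changes ran from -0.44 to -0.35 at 88211928, from -0.39 to -0.18 at 88213785, from -0.52 to -0.31 at 88216673 and from -0.44 to -0.21 at 88218094, with adjusted p from 0.952 to 1.00. The Ugt1a1 gene sum was not called under 12 of 13 alternatives and was called without knockout library 4 (log2 change -0.42, edgeR adjusted p = 0.00844); the cause was not tested. Leaving out a library in turn gave -0.42 to -0.31 for this sum. The number of regions called over the whole table stayed between 15 and 22. The difference over both flanks ran from -0.13 to -0.04 when a library was left out (-0.04 without knockout library 4), and the share of Ugt1a1 in the window differed by -2.49 to -1.33 percentage points, always lower in the knockouts. No paired analysis was possible because the genotypes share only 1 replicate number. The standard errors of the 4 regions' log2 changes were 0.16 to 0.19 with 3 libraries per genotype, against medians of 0.46 over all tested regions and 0.17 over the 740 regions at or above the level of the weakest of them.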
